A study of Mus musculus with 24 samples.

Results

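The genes described here are protein and lipid kinases of intracellular signalling, chosen by symbol: every gene with an AGO2 peak whose symbol begins with Map2k, Map3k, Map4k, Mapk, Pik3, Prk, Stk, Camk, Csnk, Jak, Hipk or Ripk, with Map3k8 (4 peaks) left out. The rule took 72 of the 4165 genes in the deposited peak table and 323 of its 14634 peaks. Of these genes, 6 share a prefix but encode no kinase subunit (among them Mapkbp1, Pik3ip1, Pik3ap1, Prkcsh and Jakmip1), and they hold 13 of the peaks. No measured value entered the rule, but the rule was set with earlier results of these data known.

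AGO2 is the Argonaute protein that carries a mature microRNA to its target, and HITS-CLIP sequences the RNA that ultraviolet light has crosslinked to it. CD4+ T cells of miR-155 KO mice were compared with CD4+ T cells of WT mice, both of the C57BL/6 strain. Cells of spleen and lymph nodes were isolated with CD4 beads and activated for 4 days in IL-2 (20 U/mL) and CD3 and CD28 antibodies (1 µg/mL). Each genotype had 12 libraries labelled as biological replicates, 6 with each 3' linker. The deposited table gives 1 pooled value per peak and genotype, so no value per library, no replicate error and no depth per library could be computed here.

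Mitogen-activated protein kinases work in tiers, in which a MAP4K or a receptor complex activates a MAP3K, which phosphorylates a MAP2K, which in turn activates a MAPK such as ERK, JNK or p38. In T cells these cascades run beside PI3 kinase, protein kinase C and the Janus kinases, which carry signals of the antigen receptor, of costimulation and of cytokines. A microRNA pairs through its seed, bases 2 to 8 counted from its 5′ end, with a matching site in the 3' UTR of an mRNA, and AGO2 bound there commonly lowers the stability or translation of that mRNA. miR-155 is induced when T cells are activated.

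The mature sequences of 5 microRNAs whose sites recur in the kinase peaks are shown from RefSeq (GRCm38.p6), 5′ to 3′, with the seed in capitals.
mmu-miR-155-5p: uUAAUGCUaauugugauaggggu
mmu-let-7a-5p: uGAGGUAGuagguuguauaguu
mmu-miR-17-5p: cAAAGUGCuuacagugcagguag
mmu-miR-16-5p: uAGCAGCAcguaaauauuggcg
mmu-miR-27a-3p: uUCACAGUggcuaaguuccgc

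The miR-155 matches under AGO2 peaks are shown next because they are the sites that the deleted microRNA could occupy. Each window of 30 nt was read from the deposited peak sequence, runs 5′ to 3′ along the mRNA as DNA letters, and has the match in capitals. Positions are on GRCm38, from an exact match of the peak to a GENCODE M21 transcript. All 4 windows lie in the last exon of the gene, in the annotated 3' UTR.
Map3k14 peak 2, 8mer, chr11:103219951-103219980, minus strand, exon 16 of 16: ggactcattgtAGCATTAAgttcactgtga
Csnk1g2 peak 1, 8mer, chr10:80640243-80640272, plus strand, exon 11 of 11: tccccttcgagAGCATTAActatttaaacc
Prkca peak 1, 7mer-m8, chr11:107939318-107939347, minus strand, exon 17 of 17: ccccaaccaaaAGCATTAtcttagtggatg
Stk38 peak 4, 6mer, chr17:28971321-28971350, minus strand, exon 14 of 14: taactgttaagGCATTAtttgcacctgtgt
An 8mer is the full match AGCATTAA, a 7mer-m8 lacks the last A, a 7mer-A1 lacks the first letter, and the 6mer lacks both. Peaks are numbered along each 3' UTR. Peak 9 of Map3k2 (7mer-m8) and peak 3 of Csnk1a1 (7mer-A1) also hold sites and are described by their values alone.

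Map3k14 encodes NIK, the kinase that starts the noncanonical NF-kB pathway, and its 8mer peak was the only kinase peak whose AGO2 reads differed past the threshold. Values are scaled reads, computed by undoing the deposited log2(1 + reads) scale, and a positive log2 ratio, WT over KO as deposited, means fewer reads in KO cells. Peak 2 of Map3k14 had 1.21 scaled reads in miR-155 KO cells and 101 in WT cells. The authors' deposited table gives it a log2 ratio of 5.54 and a p of 1.37e-06, which is an adjusted p of 0.000436 (Benjamini-Hochberg method, over the whole table). Almost all of its signal was thus in the WT cells, and it lay at nt 1035 to 1071 of the 3' UTR. Pooled reads do not tell less AGO2 binding per transcript from fewer transcripts or fewer cells that carry them.

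The other Map3k14 peaks differed less. Peak 1, which holds sites for miR-17 and miR-19 but none for miR-155, had 16.3 scaled reads in KO cells and 23.2 in WT cells, and the authors' deposited table lists a log2 ratio of 0.49 with a p of 0.730. Peak 3, which holds a miR-155 seed match broken by 1 mismatch, was listed at 0 in KO cells and had 8.05 scaled reads in WT cells. The authors' deposited table lists a log2 ratio of 3.18 for peak 3 with a p of 0.0490. After Benjamini-Hochberg adjustment it did not pass the threshold. Peak 2 made up 68.4% of the reads of the gene, whose sum was 17.5 in KO cells and 133 in WT cells. Outside peak 2 the sums were 16.3 in KO cells and 31.2 in WT cells. 

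Peak 2 of Map3k14 also holds an 8mer for miR-27, 4 nt downstream of the miR-155 8mer. The stretch with both sites in capitals, miR-155 first, is at chr11:103219947-103219974 on the minus strand.
Map3k14 peak 2, both sites: attgtAGCATTAAgttcACTGTGAAtca
No other kinase peak held 7-nt or 8-nt sites for both microRNAs, and 7 of the 265 peaks with a miR-155 site in the whole table did.

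**Figure D1:**
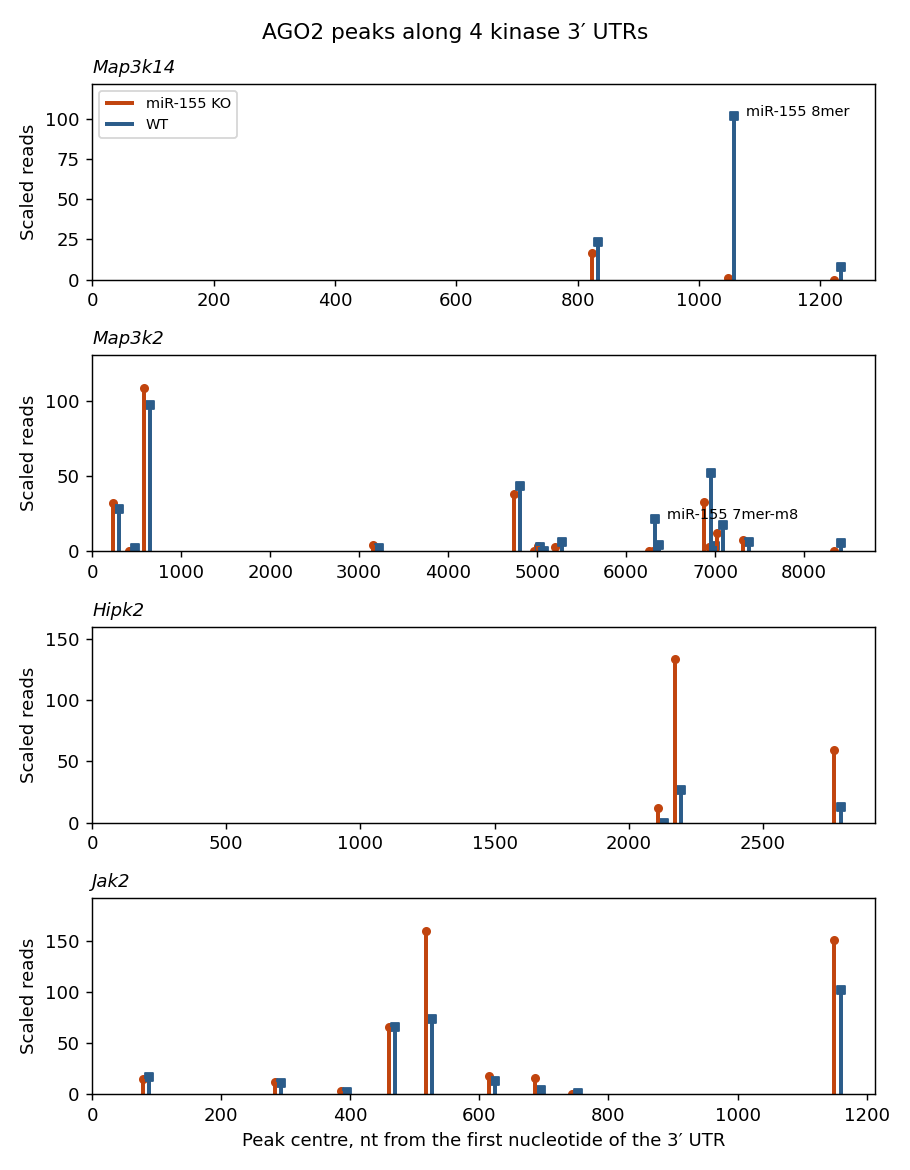
Scaled AGO2 reads of each peak (vertical axis) against the centre of the peak in nt from the start of the 3' UTR (horizontal axis), in miR-155 KO cells (orange circles) and WT cells (blue squares), for Map3k14, Map3k2, Hipk2 and Jak2; bars of a peak are set slightly left and right of its centre so that both show. Peak 2 of Map3k14 has 1.21 reads in KO cells and 101 in WT cells, while the 3 Hipk2 peaks and the 2 tallest Jak2 peaks are higher in KO cells.

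Of the 323 kinase peaks, 1 was lower in KO cells at an adjusted p below 0.05, which is 0.310%, against 0.574% of all peaks in the table. None was higher in KO cells, where 0.0273% of all peaks were. At an unadjusted p below 0.05 in the authors' deposited table, 11 kinase peaks were lower in KO cells, 3.41% of them against 2.72% of all peaks. A further 6 were higher in KO cells, 1.86% of them against 1.48% of all peaks. These shares were near those of the table as a whole. A p that misses the threshold does not show that a peak was bound alike in both genotypes.

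miR-155 sites of 7 or 8 nt lay in 5 kinase peaks, 1.55% of them against 1.81% of all peaks, and all 5 had fewer reads in KO cells, as did 247 of the 265 such peaks in the table. Together these 5 peaks had 1.93 scaled reads in KO cells and 156 in WT cells. Peak 9 of Map3k2 was listed at 0 in KO cells and had 21.4 scaled reads in WT cells, and the authors' deposited table gives it a p of 0.000597, or 0.0824 after Benjamini-Hochberg adjustment. Map3k2 encodes MEKK2, an upstream kinase of the JNK and ERK5 cascades, and its other 14 peaks summed to 245 reads in KO cells and 271 in WT cells. The site peak of Map3k2 was therefore a small portion of the AGO2 signal on that mRNA.

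Csnk1g2 encodes casein kinase 1 gamma 2, a membrane-anchored serine/threonine kinase. Its only peak, the 8mer peak shown above, was listed at 0 in KO cells and had 20.8 scaled reads in WT cells, with an adjusted p of 0.576 by the Benjamini-Hochberg method. Peak 1 of Prkca, the gene of the conventional protein kinase C alpha, was listed at 0 in KO cells and had 4.91 reads in WT cells. Peak 3 of Csnk1a1, the gene of casein kinase 1 alpha, had 0.718 reads in KO cells and 7.92 in WT cells. The Prkca and Csnk1a1 site peaks were shallow, and neither passed the threshold.

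The 6mer peak of Stk38, the gene of the NDR1 kinase, also holds a miR-19 site. It had 33.3 scaled reads in KO cells and 69.5 in WT cells. The authors' deposited table gives it a log2 ratio of 1.04 with a p of 0.299. Of the Stk38 peaks with no miR-155 match, peaks 2 and 5 had log2 ratios of 1.91 and 1.38, and 2 others had more reads in KO cells. A 6-nt match ending in the A opposite base 1 of the microRNA (6mer-A1) was the longest match in 6 kinase peaks. All 6 had fewer reads in KO cells, as did 158 of the 246 such peaks in the table. Their median log2 ratio was 1.01, against 0.42 in all such peaks of the table, and none of the 6 passed the threshold. The 6 kinase peaks included peak 12 of Jak1, which was listed at 0 in KO cells and had 13.7 reads in WT cells. The deepest of the 6, peak 2 of Map4k3, had 58.6 reads in KO cells and 85.5 in WT cells. Of the 2 kinase peaks with an offset 6mer, a match to bases 3 to 8 of the microRNA, peak 3 of Pik3r1 had 11.6 reads in KO cells and 3.29 in WT cells, and peak 9 of Stk17b was listed at 0 in KO cells and had 7.68 in WT cells. The 9 kinase peaks with a seed match broken by 1 mismatch had a median of 0.16, against 0.50 over all such peaks. The 309 kinase peaks with no exact miR-155 match had a median of -0.02, against 0.16 in the 13808 such peaks of the table. Most of the 9 mismatched peaks are among these 309, and peak 1 of Map4k4 is among the 6mer-A1 peaks.

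**Figure D2:**
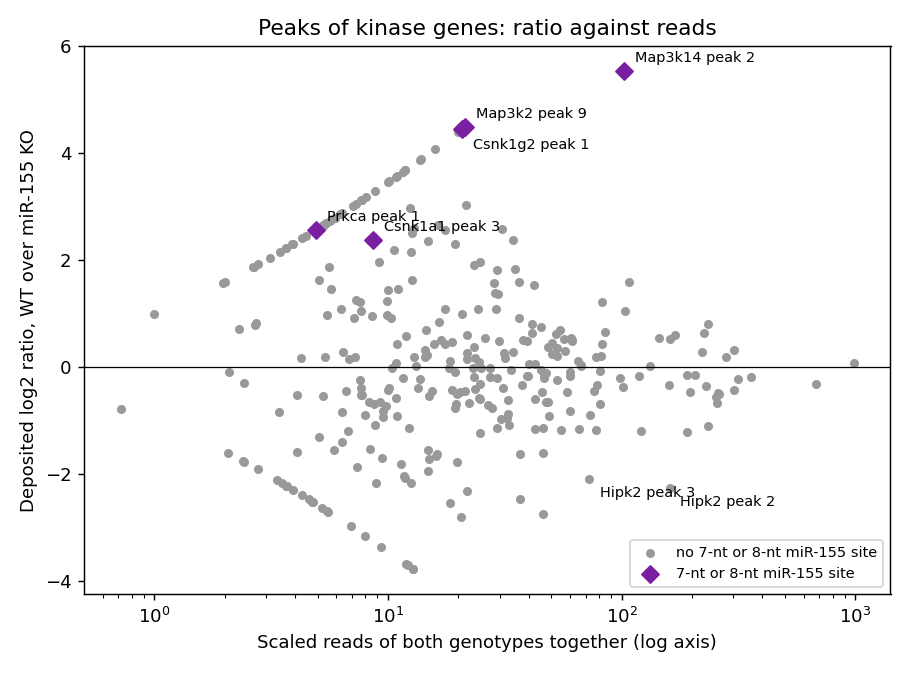
Deposited log2 ratio, WT over miR-155 KO (vertical axis, positive means fewer reads in KO cells), against the scaled reads of both genotypes together (horizontal log axis), with 1 point for each of the 323 kinase peaks. Purple diamonds are the 5 peaks with a 7-nt or 8-nt miR-155 site, all above 0; the straight upper and lower edges are peaks listed at 0 in KO cells or in WT cells.

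The kinase genes as a set had close to equal AGO2 signal in the 2 genotypes. Their scaled reads summed to 7220 in KO cells and 7019 in WT cells, which is 1.93% of the KO reads and 1.89% of the WT reads in the table. The median log2 ratio was 0.03 (quartiles -0.71 and 1.15), against 0.20 (quartiles -0.61 and 1.33) over all peaks. Peaks with more reads in KO cells were 158 of 323, or 48.9%, against 43.3% of all peaks. Summed over a gene, 41 of the 72 genes had more reads in KO cells and 31 had more in WT cells, while 1791 of all 4165 genes had more in KO cells and 2369 had more in WT cells.

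Kinase peaks resembled the rest of the table in size and base content. The median peak held 17.4 scaled reads (KO plus WT), against 17.0 over all peaks, with a median length of 40 nt against 39 nt and a median GC content of 35.6% against 36.8%. The median start lay 1115 nt into the 3' UTR, against 880 nt over all peaks. A kinase gene had a median of 3 peaks, with 26 of 72 genes at 1 peak (36.1%), against a median of 2 peaks and 40.8% of all genes at 1. Hipk1 and Hipk3 had the most peaks, with 18 each.

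The signal was uneven between genes. The 10 genes with the most reads held 59.3% of the kinase reads, the 29 genes with at least 100 reads held 91.2%, and the 43 genes below 100 reads held 8.79%. Of the 323 peaks, 47 were listed at 0 in KO cells (14.6%, against 16.6% of all peaks) and 24 were listed at 0 in WT cells (7.43%, against 7.87%). Peaks listed at 0 were shallow, with a median of 5.90 reads in WT cells for the first set and 4.65 in KO cells for the second.

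**Figure D3:**
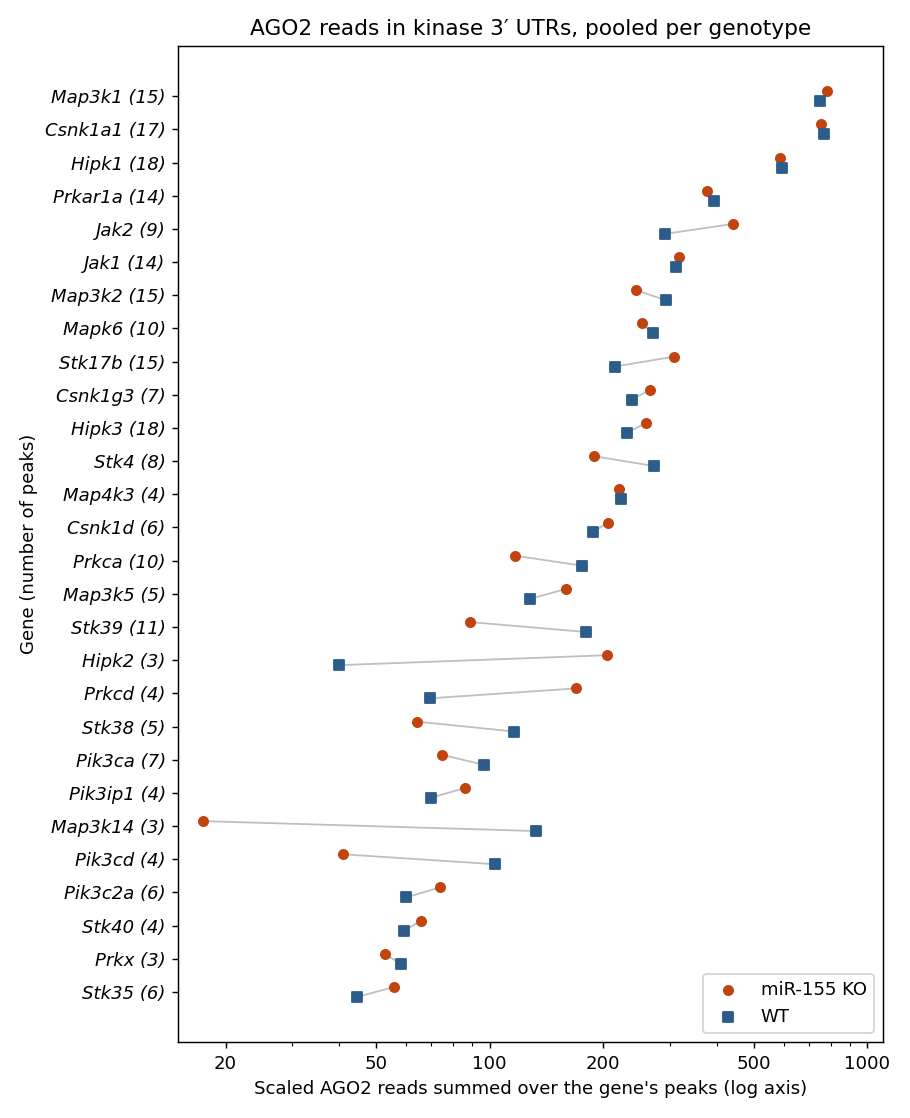
Scaled AGO2 reads summed over the peaks of a gene (horizontal log axis) in miR-155 KO cells (orange circles) and WT cells (blue squares) for 28 of the 29 kinase genes with at least 100 reads in both genotypes together, ordered by that total, with the number of peaks in brackets. Most pairs lie close together; Map3k14 (17.5 in KO cells, 133 in WT cells) and Hipk2 (205 in KO cells, 39.8 in WT cells) are the widest.

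At the top tier of the cascade, Map4k3 encodes GLK, a kinase that signals from the antigen receptor to NF-kB. Its 4 peaks summed to 220 scaled reads in KO cells and 222 in WT cells, but they were not alike. Peak 4 had 153 reads in KO cells and 107 in WT cells, peak 2 had 58.6 in KO cells and 85.5 in WT cells, and peak 3, with a let-7 site, was listed at 0 in KO cells and had 19.9 in WT cells (p of 0.0217 in the authors' deposited table). Map4k4, a kinase of the JNK cascade, had 53.9 reads in KO cells and 27.2 in WT cells, mostly in its peak 2, which has a miR-23 8mer. None of these peaks passed the threshold.

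Among MAP3 kinases, Map3k1 carried the most AGO2 reads of any kinase gene. It encodes MEKK1, an activator of the JNK cascade. Its 15 peaks summed to 782 scaled reads in KO cells and 748 in WT cells. Peak 12 held 44.4% of these, with 379 reads in KO cells and 301 in WT cells, and lies over a let-7 8mer. Peaks 13 and 15, with none of the sites searched, had 131 and 85.1 reads in KO cells and 149 and 148 in WT cells. 

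Map3k5, the gene of the stress kinase ASK1, had 88.7% of its reads in peak 1, which has sites for miR-17 and miR-30, with 157 reads in KO cells and 97.8 in WT cells. Map3k7, the gene of TAK1, had 1 peak, over a miR-21 8mer, with 38.5 reads in KO cells and 16.3 in WT cells. Map3k2, described above for its miR-155 site, had its tallest peak at nt 595, with 109 reads in KO cells and 97.6 in WT cells. Over the 8 MAP3K genes the sums were 1280 in KO cells and 1355 in WT cells, and without Map3k14 the other 7 genes had 1263 in KO cells and 1222 in WT cells.

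Of the middle tier, Map2k7, an activator of JNK, had 38.7 scaled reads in KO cells and 21.3 in WT cells, and Map2k1, the gene of MEK1, had 24.5 in KO cells and 28.4 in WT cells, each in 1 peak. Mapk6, the gene of the atypical kinase ERK3, was the most bound MAPK gene, with 253 reads in KO cells and 270 in WT cells over 10 peaks. Its peak 3, over a let-7 8mer, had 99.7 reads in KO cells and 89.9 in WT cells. Mapk3, the gene of ERK1, had 1 peak, with 12.01 reads in KO cells and 2.93 in WT cells. The authors' deposited table gives a log2 ratio of -1.73 there, and the Benjamini-Hochberg adjusted p was 0.643.

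The let-7 and miR-17 windows of the most read peaks of these cascades are shown because these peaks held AGO2 reads in both genotypes. The sites are in capitals and lie in the last exon of each gene. Whether AGO2 was bound through these sites was not tested, and the Map3k5 and Jak1 peaks also hold a miR-30 site.
Map3k1 peak 12, let-7 8mer, chr13:111746730-111746759, minus strand: tccagtttctaCTACCTCAggtgtcctata
Mapk6 peak 3, let-7 8mer, chr9:75387520-75387549, minus strand: acatgtgttatCTACCTCAaggtaacaaaa
Map3k5 peak 1, miR-17 8mer, chr10:20141669-20141698, plus strand: gaagctGCACTTTAaatccagtctttgttt
Jak1 peak 14, miR-17 7mer-m8, chr4:101152392-101152421, minus strand: tcgctctatatGCACTTTgtttactcttta

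The Janus kinases phosphorylate cytokine receptors and their STAT proteins, and JAK1 serves the IL-2 receptor. Jak1 had 316 scaled reads in KO cells and 311 in WT cells over 14 peaks. Its peak 14, which holds the miR-17 site shown above and a miR-30 site, had 134 reads in KO cells and 167 in WT cells, while peak 9 had 84.6 in KO cells and 36.4 in WT cells. Jak2 had 441 reads in KO cells and 291 in WT cells over 9 peaks, a log2 ratio of the sums plus 1, WT over KO, of -0.60. Most of that gap lay in peak 5, with 160 reads in KO cells and 73.9 in WT cells, and peak 9, with 151 in KO cells and 102 in WT cells, while peak 4 had 65.7 in KO cells and 66.2 in WT cells. The p values of peaks 5 and 9 were 0.331 and 0.119 in the authors' deposited table.

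HIPK genes encode nuclear kinases that phosphorylate homeodomain proteins and, in the case of HIPK2, p53. Hipk1 had 585 scaled reads in KO cells and 595 in WT cells, and Hipk3 had 259 in KO cells and 231 in WT cells. Within Hipk1, peak 14 had 41.0 reads in KO cells and 5.25 in WT cells, with a Benjamini-Hochberg adjusted p of 0.594. Hipk2 stood apart from these, with 205 reads in KO cells and 39.8 in WT cells and a log2 ratio of the sums plus 1, WT over KO, of -2.33. All 3 of its peaks had more reads in KO cells. Peak 2 had 133 in KO cells and 26.8 in WT cells, with a p of 0.0387 in the authors' deposited table. Peak 3 had 59.5 in KO cells and 13.1 in WT cells, and the authors' deposited table lists a log2 ratio of -2.10 and a p of 0.00220, or 0.217 after Benjamini-Hochberg adjustment. Peak 1 had 11.9 in KO cells and was listed at 0 in WT cells. No Hipk2 peak passed the threshold, although peak 3 had the smallest p of the kinase peaks that were higher in KO cells.

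Peak 3 of Hipk2 and peaks 5 and 9 of Jak2 share a 7mer-m8 for the miR-15/16 family, shown here because these were the deepest kinase peaks with that site. Each lies in the last exon.
Jak2 peak 5, chr19:29312354-29312383, plus strand: ttgctcatcttTGCTGCTctgttagggcct
Jak2 peak 9, chr19:29312988-29313017, plus strand: atcatccttcgTGCTGCTccctcttagaca
Hipk2 peak 3, chr6:38695341-38695370, minus strand: tgagtgttcctTGCTGCTcataaagttagt
The 12 kinase peaks with a miR-15/16 site had 498 scaled reads in KO cells and 295 in WT cells, and 8 of them had more reads in KO cells. Their median log2 ratio was -0.99, against 0.04 over the 670 such peaks of the table. Without Jak2 the other 10 peaks had 186 reads in KO cells and 119 in WT cells. Of these, peak 3 of Hipk2 alone had 59.5 in KO cells and 13.1 in WT cells. Peaks 1 and 2 of Hipk2 hold no miR-15/16 site and also had more reads in KO cells. None of the 12 passed the threshold, and the set was picked out after its values were seen.

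Protein kinase C genes ran in different directions. Prkcd, the gene of protein kinase C delta, had 170 scaled reads in KO cells and 69.3 in WT cells, and all 4 of its peaks had more reads in KO cells. Its peak 2, with overlapping 8mers for miR-181 and miR-26, had 133 in KO cells and 57.0 in WT cells. Its peak 1 had 18.7 in KO cells and 1.81 in WT cells. The Benjamini-Hochberg adjusted p of peak 1 was 0.878. Prkca had 117 reads in KO cells and 175 in WT cells over 10 peaks. Peak 6 of Prkca was listed at 0 in KO cells and had 10.1 reads in WT cells, with a Benjamini-Hochberg adjusted p of 0.134. Hipk2 and Prkcd were the only genes, of the 40 with at least 3 peaks, whose peaks all had more reads in KO cells. Map2k4, Map3k14 and Pik3ap1 were those whose peaks all had more in WT cells. Each of these genes had only 3 or 4 peaks. The matching share over all genes was not computed, so whether such genes are more frequent among kinase genes was not tested.

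Prkar1a encodes the regulatory subunit that keeps protein kinase A inactive until cyclic AMP binds. It had 375 scaled reads in KO cells and 393 in WT cells over 14 peaks, with 191 in KO cells and 167 in WT cells at peak 4. Within this 3' UTR, peak 1 had 7.13 reads in KO cells and 27.9 in WT cells, and peak 12 had 12.7 in KO cells and 3.29 in WT cells. Their adjusted p values by the Benjamini-Hochberg method were 0.533 and 0.251, so the opposite differences of these peaks did not pass the threshold. Prkx, a related catalytic kinase, had 52.8 reads in KO cells and 58.2 in WT cells.

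PI3 kinases make the lipid signal that recruits AKT. Pik3cd, the gene of the catalytic subunit p110 delta that leukocytes use, had 40.9 scaled reads in KO cells and 104 in WT cells, the second largest log2 ratio of sums plus 1 (1.32) among kinase genes with at least 100 reads. Its peak 1, over a miR-30 8mer and without a miR-155 site, had 26.5 in KO cells and 81.2 in WT cells, and the authors' deposited table lists a log2 ratio of 1.58 with a p of 0.545. Pik3ca, the gene of p110 alpha, had 74.6 reads in KO cells and 96.4 in WT cells. Pik3ip1, which encodes a membrane inhibitor of PI3 kinase, had 86.1 reads in KO cells and 69.8 in WT cells. None of the PI3 kinase peaks passed the threshold.

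Among the STK genes, Stk17b encodes DRAK2, a kinase that raises the threshold of antigen receptor signalling, and Stk4 encodes MST1, a Hippo pathway kinase needed for normal T cell trafficking. Stk17b had 308 scaled reads in KO cells and 214 in WT cells over 15 peaks, with 150 in KO cells and 107 in WT cells at peak 12. Stk4 had 189 reads in KO cells and 273 in WT cells over 8 peaks. Peak 7 of Stk4 accounted for 88.3 in KO cells and 137 in WT cells, for which the authors' deposited table has a log2 ratio of 0.62 and the Benjamini-Hochberg adjusted p was 0.509. Stk39, the gene of SPAK, a kinase of ion cotransporters, had 88.6 reads in KO cells and 180 in WT cells spread over 11 peaks. Stk38 had 64.2 reads in KO cells and 116 in WT cells, and Stk35 had 55.9 in KO cells and 44.5 in WT cells.

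Of the casein kinase 1 genes, Csnk1a1 and Csnk1g3 were among the 10 kinase genes with the most reads. Csnk1a1, whose product phosphorylates beta-catenin and acts on the CARMA1 complex of lymphocytes, had 754 scaled reads in KO cells and 766 in WT cells over 17 peaks. Its peak 13, with a miR-17 site, held 64.8% of them, with 481 in KO cells and 504 in WT cells. This was the deepest kinase peak and was close to even between the genotypes. Csnk1g3, another gamma isoform, had 265 reads in KO cells and 238 in WT cells.

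The remaining families were shallow. Ripk1, the gene of a kinase at the tumour necrosis factor receptor, had 37.3 scaled reads in KO cells and 24.3 in WT cells, and Ripk3, the gene of the necroptosis kinase, had 19.6 in KO cells and 20.5 in WT cells. Camk4, a calcium/calmodulin-dependent kinase, had 13.8 reads in KO cells and 18.5 in WT cells, and Camk2d had 10.01 in KO cells and 15.2 in WT cells. Prkaa1, the gene of the AMPK catalytic subunit alpha 1, was listed at 0 in KO cells at both of its peaks and had 23.2 reads in WT cells. Prkab2, the gene of an AMPK regulatory subunit, had 14.7 reads in KO cells and 4.99 in WT cells.

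**Figure D4:**
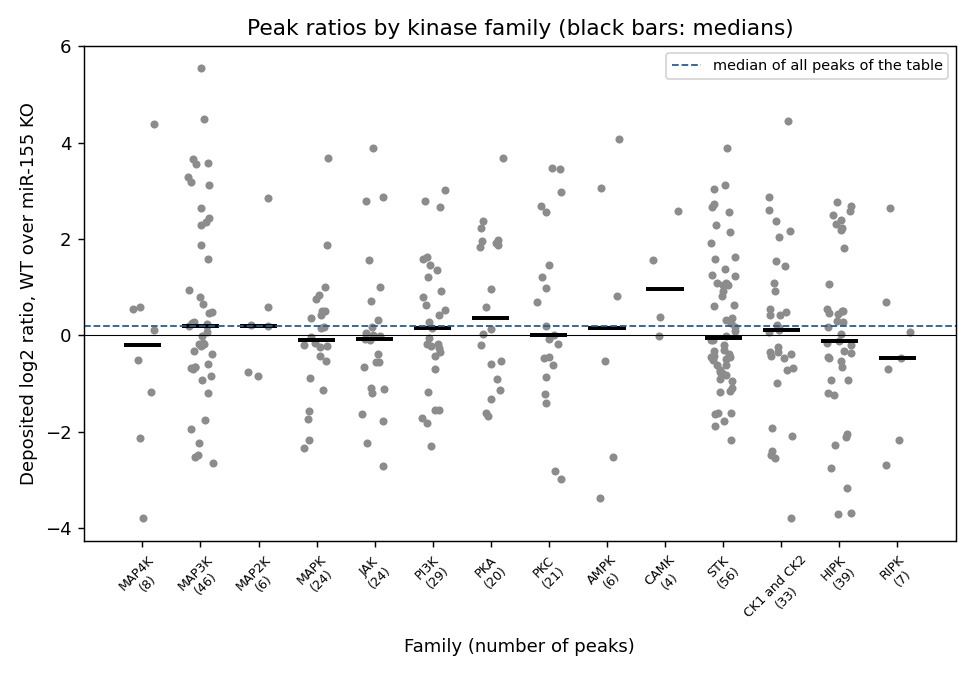
Deposited log2 ratio, WT over miR-155 KO (vertical axis), of each kinase peak by family (horizontal axis, number of peaks in brackets), with black bars at the family medians and a dashed line at 0.20, the median of all peaks in the table. Family medians lie between -0.46 (RIPK) and 0.97 (CAMK), and points of each family spread on both sides of 0.

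By family, the only peak past the threshold was that of the MAP3K gene Map3k14. Jak1 and Jak2 together had 758 scaled reads in KO cells and 602 in WT cells, and HIPK genes had 1050 in KO cells and 865 in WT cells. MAP4K genes had 287 in KO cells and 249 in WT cells. STK genes had 843 in KO cells and 933 in WT cells, and the 6 genes of PI3 kinase subunits had 227 in KO cells and 289 in WT cells. The casein kinase genes had 1248 in KO cells and 1222 in WT cells. Hipk2 accounted for most of the HIPK gap and Jak2 for most of the JAK gap.

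Sites of 15 other microRNA families were searched in the same way. A 7-nt or 8-nt site of at least 1 of them lay in 108 of the 323 kinase peaks, or 33.4%, against 33.7% of all peaks, and these kinase peaks held 45.7% of the kinase reads, against 43.8% of all reads in the table. Of the 10 deepest kinase peaks, 4 had such a site. The most frequent was miR-19, in 18 kinase peaks (5.57%, against 3.05% of all peaks), followed by miR-27 in 17 (5.26%, against 3.59%). Sites for miR-142-3p lay in 3 kinase peaks (0.929%, against 2.94% of all peaks), sites for miR-29 in 3 (0.929%, against 2.56%), and sites for miR-24 in none, against 1.13% of all peaks. Peaks of 1 gene share a 3' UTR, so these shares are descriptions without a test. 

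**Figure D5:**
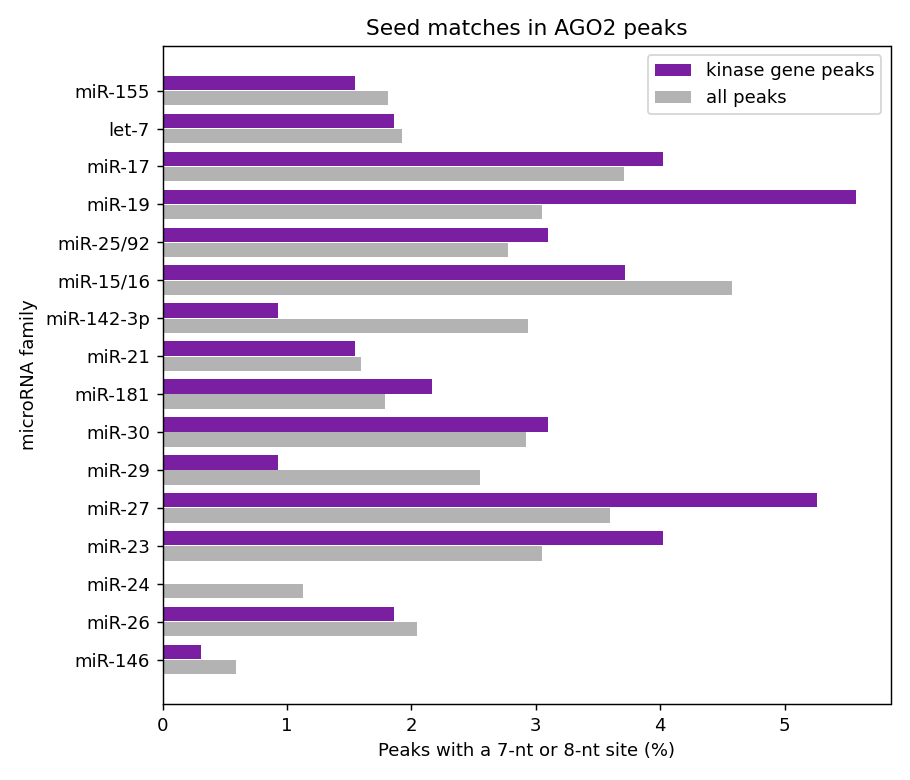
Share of peaks with a 7-nt or 8-nt site (horizontal axis, percent, starting at 0) for miR-155 and 15 other microRNA families (vertical axis), among the 323 kinase peaks (purple) and all 14634 peaks (grey). The share for miR-155 is 1.55% of kinase peaks and 1.81% of all peaks; miR-19 has the largest share among kinase peaks, at 5.57%.

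Genes that act with these kinases but fall outside the symbol rule were read from 5 lists. The lists were chosen with earlier results of these data known, so their shares of called peaks are descriptions without a test. Of 27 genes of Ras and ERK signalling, 22 had peaks, and 3 had a peak lower in KO cells at an adjusted p below 0.05 by the Benjamini-Hochberg method, with none higher. That is 3 of 117 peaks, against 0.574% of all peaks in the table. These were Nf1, a Ras GTPase-activating protein, Rasa2, another such protein, and Rps6ka3, the gene of the ERK substrate RSK2. Peak 2 of Nf1, over a miR-155 8mer, was listed at 0 in KO cells and had 32.3 scaled reads in WT cells. Peak 3 of Rps6ka3, over a 7mer-m8, had 4.51 in KO cells and 79.8 in WT cells, and peak 8 of Rasa2, with no miR-155 match, was listed at 0 in KO cells and had 22 in WT cells. 

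Of 13 genes downstream of PI3 kinase, 8 had peaks, and 2 of their 63 peaks were lower in KO cells, with none higher, where 0.574% of all peaks were lower. Inpp5d encodes the lipid phosphatase SHIP1, and its peak 2, over an 8mer, was listed at 0 in KO cells and had 31.0 scaled reads in WT cells. Rheb encodes the GTPase that activates mTORC1, and its peak 1, over a 7mer-A1, had 12.6 in KO cells and 128 in WT cells. Of 9 Hippo pathway genes, 6 had peaks, and 1 of their 67 peaks was lower in KO cells, again against 0.574% of all peaks. This was Taok3, the gene of a kinase upstream of MST1, whose only peak, over a 6mer, was listed at 0 in KO cells and had 24.2 reads in WT cells, with an adjusted p of 0.00463 by the Benjamini-Hochberg method. 

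None of the 72 peaks of the 15 bound JAK-STAT genes (of 17) passed the threshold, nor did any of the 12 peaks of Tab2, Tab3 and Traf3, the 3 bound genes of 10 TAK1 adaptors and TRAFs. Tab2, whose product joins TAK1 to ubiquitin chains, had 61.9 scaled reads in KO cells and 145 in WT cells. Traf3, whose product holds NIK at a low level in resting cells, had 21.0 in KO cells and 64.3 in WT cells. The median log2 ratio of the 12 peaks was 1.89, against 0.20 over all peaks.

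All 7 marker genes of CD4+ T cells looked up (Cd4, Cd3e, Cd3g, Cd28, Icos, Il2ra and Cd69) had AGO2 peaks, with sums of 9318 scaled reads in KO cells and 7366 in WT cells. Without Il2ra the sums were 6025 in KO cells and 5431 in WT cells. Of their 94 peaks, 2 were lower in KO cells past the threshold, against 0.574% of all peaks in the table. The first of these, in Cd69, has no miR-155 match, and the second, in Icos, has a 6mer. Peak 10 of Cd69 had 18.3 reads in KO cells and 42.1 in WT cells, and peak 4 of Icos had 7.77 in KO cells and 64.8 in WT cells, with Benjamini-Hochberg adjusted p values of 0.0267 and 0.0277. None of 4 B cell, 4 myeloid and 4 CD8 and NK cell markers had a peak in the table. A gene without a peak is not shown to be unexpressed.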

How the data were processed

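AGO2 HITS-CLIP libraries from 12 miR-155 KO and 12 WT samples were read through the authors' deposited peak table. KO replicates 1 to 6 and WT replicates 7 to 12 had linker 1, and the others linker 2. Bowtie 0.12.7 and mm9 are named in the submitters' processing notes. The sources used here do not say how reads were scaled or which test gave the p-values. Per the file headers, the deposited log2 values are reads per genotype and their ratio, WT over KO, with a deposited p-value for differential binding.

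The ratio matched the WT column minus the KO column within 6e-05. Scaled reads were taken as 2 to the power of the log2 value, minus 1, and summed per gene; this pseudocount of 1 understates changes of shallow peaks. No model across libraries could be fitted to pooled values, so Benjamini-Hochberg adjustment over 14634 peaks was applied to the deposited p-values (threshold 0.05) and was tested on simulated data. Whether the p-values reflect the spread between libraries is unknown, and without library depths no counting interval was computed.

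Sites were searched as exact seed matches on the sense strand. Of 323 kinase peaks, 310 matched GENCODE M21 transcripts on GRCm38, 309 of them in annotated 3' UTRs. All 72 symbols were in the RefSeq table used. miR-150 was not analysed here, and 1 gene that the naming rule picks is not reported here. The members, lists and alternatives were chosen with earlier results of these data known. Genes named were peaks past the threshold, miR-155 site peaks of at least 10 reads, the 10 genes with the most reads, the 2 with the most in each family, the 5 largest and 5 lowest gene ratios at 100 reads or more, and the 5 peaks with the smallest p in each direction; the other genes and peaks named were chosen after their values were seen. Python 3.11.15 was used with NumPy 2.4.6, pandas 2.3.3 and matplotlib 3.10.9.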

Additional observations from a re-analysis of the deposited data

How the results depend on the processing

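The count of 1 kinase peak lower in KO cells was also 1 under a Bonferroni adjustment, at a threshold of 0.01, and over peaks with at least 10 reads or with reads in both genotypes. It was 2 at a threshold of 0.1, where peak 9 of Map3k2 passed, and 0 without Map3k14, where 9 peaks were lower in KO cells at an unadjusted p below 0.05. The count of peaks higher in KO cells was 0 under each alternative, with 6 at an unadjusted p below 0.05. The adjusted p of peak 2 of Map3k14 ranged from 0.000295 to 0.0200. The median log2 ratio of kinase peaks, 0.03, lay near 0 throughout and changed sign: it was -0.0158 at 10 or more reads, -0.0815 with reads in both genotypes, -0.0839 there without the pseudocount, -0.167 centred on all peaks and 0.0433 without the 6 genes that encode no kinase subunit. The log2 ratio of the summed reads was -0.0408, -0.0380 without Map3k1 and -0.0872 with reads in both genotypes. Peaks with a miR-155 site numbered 5, and 2 for 8mers alone; 5 without the flanking 6 nt, and 6 with 6mers. Leaving out Map3k14 and moving the threshold for related genes were added after seeing the data. So were shortening the sequence and raising the read minimum for sites of other families. No paired analysis was possible because the table pools the libraries of each genotype, and leaving out single libraries or adding a linker term was not run for the same reason.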
